A study of Mus musculus with 2 samples.

Results

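The family of the hairpins miR-28a, miR-151 and miR-708 was followed here as 6 mature miRNAs, the 5p and 3p arm of each hairpin, among 1358 mature miRNAs measured in the retina of newborn mice. The members were chosen by name, as the rows for both arms of these 3 hairpins, and each of them was present in the count table, the table of CPM, which are counts scaled to a common library size, and the table of most frequent reads. The series held 1 group, wild-type CD-1 mice at postnatal day 0, with 2 small RNA sequencing libraries labelled replicate 1 and replicate 2 and no condition to compare. CD-1 is an outbred laboratory strain, and the labels do not say whether the replicates came from separate animals, so their spread measures these samples and can be of technical origin.

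A miRNA hairpin is cut into a duplex of its 5p and 3p arms, and an Argonaute protein usually keeps one arm as the guide that pairs with target mRNAs. Bases 2 to 8 of the guide, the seed, set most of the target choice, so the arm that is kept and the base at which it starts both decide which mRNAs are bound. miR-28 and miR-151 are known to derive from copies of a LINE-2 transposable element. miR-708 is known in mice to be co-expressed with its host gene Tenm4 (formerly Odz4), to be induced under endoplasmic reticulum stress and to target the mRNA of the photoreceptor pigment rhodopsin. miR-28-5p and miR-28-3p have been given different roles in human colon cancer cells, and miR-151-5p has been linked in human liver cancer cells to migration, together with the focal adhesion kinase encoded by its host gene.

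The most frequent read of each member in replicate 1 is printed in DNA letters with bases 2 to 8 in capitals, because the shared and the shifted seeds are what joins and separates these hairpins.

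miR-28a-5p: aAGGAGCTcacagtctattgag
miR-708-5p: aAGGAGCTtacaatctagctggg
miR-151-5p: tCGAGGAGctcacagtctagt
miR-28a-3p: cACTAGATtgtgagctgctgga
miR-708-3p: cAACTAGActgtgagcttcta
miR-151-3p: cTAGACTGaggctccttgagg

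On the 5p side, miR-28a-5p and miR-708-5p had the same seed, AGGAGCT, and miR-151-5p had another, although it held the same 7 letters. They lay at bases 2 to 8 of miR-28a-5p and miR-708-5p and at bases 4 to 10 of miR-151-5p, so miR-151-5p started 2 bases earlier on the shared stretch. Counting these letters, miR-151-5p and miR-28a-5p shared an unbroken run of 16 bases, whereas the longest run that miR-708-5p shared with miR-28a-5p was bases 1 to 8 of both. Seeds were read from the RefSeq mature sequence or, without one, from a most frequent read with no mark at its 5′ end, for 1294 miRNAs of the table, and among these no further miRNA had AGGAGCT as its seed. The most frequent reads given to the relatives miR-28b (replicate 1) and miR-28c (replicate 2) carried an added 5′ base and so also held AGGAGCT at bases 2 to 8. Both rested on few counts.

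On the 3p side, each arm had a seed of its own, and none of these seeds was found in another of the 1294 miRNAs. All of the 3p arms held the letters CTAGA near their start, shown in capitals to make the shift of the starts visible.

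miR-708-3p: caaCTAGActgtgagcttcta
miR-28a-3p: caCTAGAttgtgagctgctgga
miR-151-3p: CTAGActgaggctccttgagg

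The shared letters began at base 4 of miR-708-3p, base 3 of miR-28a-3p and base 1 of miR-151-3p. The longest run shared by miR-708-3p and miR-151-3p was 8 bases long, and that shared by miR-151-3p and miR-28a-3p was 5. miR-708-3p and miR-28a-3p also shared a run of 8 bases. It lay past the letters CTAGA, from base 10 of miR-708-3p and base 9 of miR-28a-3p. The 6 members therefore made up 5 different seeds, and only the 5p arms of miR-28a and miR-708 could be pooled as a seed family.

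The RefSeq table for GRCm38 held a mature sequence for 4 of the 6 members, both arms of miR-28a and of miR-708, and their reads started at the RefSeq base in both libraries. Against RefSeq, the miR-28a-5p read was full length, 22 bases, in replicate 1 and 1 base shorter at the 3′ end in replicate 2. The miR-708-3p read was 1 base shorter in replicate 1 and 2 bases shorter in replicate 2. The other members had the same most frequent read in both libraries. At 100 CPM or more, 175 of 180 miRNAs had an identical most frequent read in the libraries, and miR-28a-5p and miR-708-3p were 2 of the 5 that had not, in each case by a change of the 3′ end that leaves the seed alone. No member's read carried a mark for a mismatch, an added base or a missing 5′ base against miRBase release 21. Unmarked reads in both libraries were common, found for 138 of 180 miRNAs at 100 CPM or more and 109 of 185 at 10 to 100 CPM. The precursor of miR-151 is known to undergo adenosine-to-inosine editing in the brain, within the seed of its 3p arm. The most frequent miR-151-3p read was unmarked in both libraries, and the share of edited reads cannot be taken from these tables.

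On GRCm38, Mir28a lies at chr16:24827855-24827940 on the plus strand, in an intron of 3 of 3 overlapping protein-coding transcripts of Lpp, the gene of an adaptor protein of focal adhesions. Mir151 lies at chr15:73254815-73254882 on the minus strand, in an intron of the 2 protein-coding Ptk2 transcripts that span it, and an annotated antisense transcript on the plus strand also spans it. Ptk2 encodes the focal adhesion kinase. Mir708 lies at chr7:96249424-96249532 on the plus strand, in an intron of 4 protein-coding transcripts of Tenm4, which encodes a teneurin, a cell-surface protein of developing neurons. No annotated transcript of these host genes placed the hairpin in an exon. The 3 hairpins thus lie on different chromosomes, each in a sense intron of a protein-coding gene.

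The libraries held 8337902 and 8118208 counts. miRNAs fixed as markers of retina (miR-9-5p, miR-124-3p, miR-183-5p, miR-96-5p and miR-182-5p) held 398217 CPM in replicate 1 and 419768 CPM in replicate 2, with 5 of 5 detected in both. Markers of other tissues were lower, at 3395 ± 558 CPM for pigment epithelium, 925 ± 92.0 CPM for lens and surface epithelium, 919.5 ± 93.2 CPM for endothelium and under 100 CPM for each of the skeletal muscle, smooth muscle, leukocyte and red cell lists. The pigment epithelium sum was almost all miR-204-5p, with 31547 counts in replicate 1 and 24309 in replicate 2. The other marker of that list, miR-211-5p, had only 50 and 43. Neither library had a count of miR-205-5p, miR-150-5p or miR-223-3p. Which cells of the retina held the members cannot be told from whole tissue. In such bulk RNA, fewer cells of a type and less RNA per cell cannot be told apart.

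The family held 0.546% of the counts in replicate 1 and 0.591% in replicate 2, and most of that was a single arm. miR-151-3p, the higher arm of its hairpin, was at 3952 CPM (exact 95% interval 3909 to 3995) in replicate 1 and 4318 CPM (4273 to 4364) in replicate 2. It averaged 4135 ± 259 CPM (SD, n = 2) and ranked 27 of 1358 miRNAs by mean level. Its nearest neighbours in level were miR-181d-5p at 4678 ± 166 CPM and miR-93-5p at 4003 ± 53.3 CPM. The opposite arm, miR-151-5p, was at 26.3 CPM (22.9 to 29.98) in replicate 1 and 22.9 CPM (19.7 to 26.5) in replicate 2. That was a mean of 24.6 ± 2.37 CPM and rank 288, between miR-3085-3p and miR-671-5p.

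miR-708 supplied the next pair. miR-708-3p was at 876 CPM (856 to 896) in replicate 1 and 1009 CPM (987 to 1031) in replicate 2, a mean of 942 ± 94.3 CPM and rank 75, between miR-192-5p and miR-135a-5p. miR-708-5p, which shares its seed with miR-28a-5p, was at 333 CPM (321 to 346) in replicate 1 and 311 CPM (299 to 323) in replicate 2. Its mean of 322 ± 16.1 CPM gave rank 115, between miR-325-5p and miR-140-5p. The values of the arms did not overlap, and the 3p arm was the higher in both libraries.

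The arms of miR-28a were close to each other. miR-28a-5p was at 142 CPM (134 to 150.8) in replicate 1 and 109 CPM (102 to 117) in replicate 2, a mean of 126 ± 23.4 CPM and rank 167, between miR-194-5p and miR-322-3p. miR-28a-3p was at 129 CPM (122 to 137) in replicate 1 and 144 CPM (136 to 152) in replicate 2, a mean of 137 ± 10.1 CPM and rank 162, between miR-335-5p and miR-130b-3p. The values of these arms overlapped. All of the members' counts were whole numbers in both libraries. Whether reads of theirs had been shared with other miRNAs in counting was not tested.

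**Figure D1:**
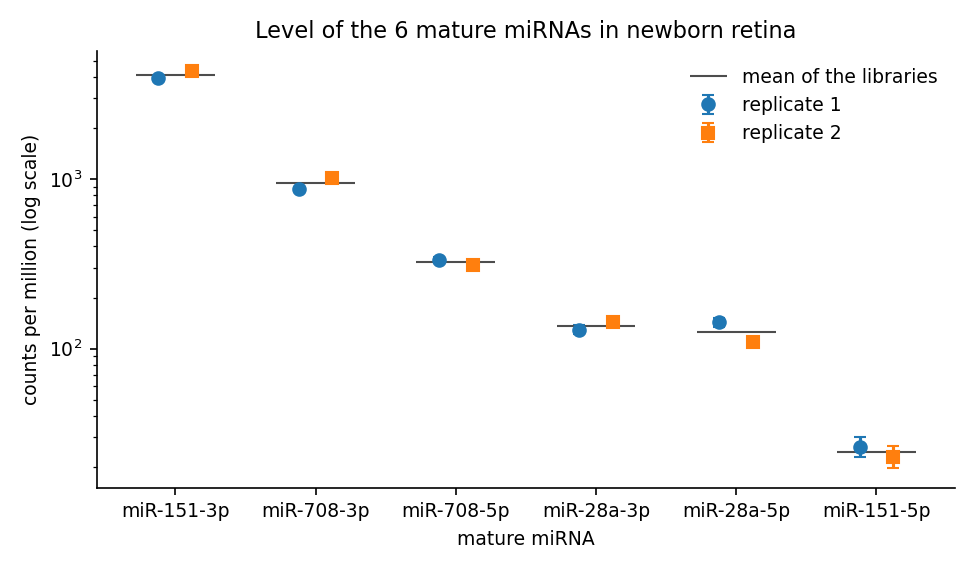
Level of each of the 6 members in CPM (log scale) in replicate 1 (circles) and replicate 2 (squares), with exact 95% intervals for counting error and a line at the mean. miR-151-3p was highest at 4135 CPM and miR-151-5p lowest at 24.6 CPM, with the arms of the other hairpins between them.

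The order of the members by mean level was miR-151-3p, miR-708-3p, miR-708-5p, miR-28a-3p, miR-28a-5p and miR-151-5p. For neighbours in this order the log2 ratio of counts was taken in each library, and a difference was held to be larger than the spread where the libraries shared its sign and the mean was over 2 SD. Of the 5 neighbouring pairs, 4 met this. The exception was miR-28a-3p over miR-28a-5p, with log2 ratios of -0.14 in replicate 1 and 0.39 in replicate 2. A level compared between different miRNAs also holds the adapter ligation yield of each sequence, whose part in these ratios was not tested.

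The same arm of different hairpins also differed in level. miR-708-5p exceeded its seed partner miR-28a-5p by 2.58-fold (log2 ratio 1.37 ± 0.20, SD, n = 2) and miR-151-5p by 13.1-fold (3.71 ± 0.067). miR-151-5p was below miR-28a-5p, with a log2 ratio of -2.34 ± 0.13. The level of the seed AGGAGCT, summed over miR-28a-5p and miR-708-5p, was 476 CPM in replicate 1 and 419.9 CPM in replicate 2, and miR-708-5p held most of it. On the 3p side, miR-151-3p exceeded miR-28a-3p by 30.3-fold (4.92 ± 0.016), miR-708-3p exceeded miR-28a-3p by 6.89-fold (2.78 ± 0.038), and the log2 ratio of miR-708-3p over miR-151-3p was -2.14 ± 0.054. Each of the 6 same-arm ratios was larger than the spread between the libraries, and no p-value was computed for them. Of the 3 hairpins, miR-151 was the highest by its 3p arm and the lowest by its 5p arm.

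The hairpins differed in summed level as well as in arm use. Over both arms miR-151 held 4160 ± 257 CPM, miR-708 1264 ± 78.2 CPM and miR-28a 262 ± 13.3 CPM (SD, n = 2). Their shares of the family's counts were 73.1% ± 0.379, 22.2% ± 0.118 and 4.63% ± 0.497, in the same order. The 3p arms together held 90.8% of the family's counts in replicate 1 and 92.5% in replicate 2. By counts over the whole table the balance was the other way, with miRNAs named 5p holding 87.4% and 87.2% in the 2 libraries. Counted by hairpin, the table was closer to even. Of the 312 hairpins tested, 40.4% had a 4-fold or larger excess of 5p in both libraries and 36.9% of 3p.

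miR-151 gave almost only its 3p arm. It had 219 counts of the 5p arm against 32951 of the 3p arm in replicate 1, and 186 against 35058 in replicate 2. The 5p arm was 0.66% of both (exact 95% interval 0.576 to 0.753) in replicate 1 and 0.528% (0.455 to 0.609) in replicate 2. The mean log2 ratio of 5p over 3p was -7.39 ± 0.23, so the 3p arm exceeded the 5p arm by 150.5-fold and 188-fold in the 2 libraries.

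miR-708 favoured its 3p arm less strongly. It had 2779 counts of the 5p arm against 7301 of the 3p arm in replicate 1, and 2521 against 8191 in replicate 2. The 5p arm made up 27.6% (26.7 to 28.5) and 23.5% (22.7 to 24.3) of the hairpin's counts, a mean log2 ratio of -1.55 ± 0.22. Each arm of miR-708 was above both arms of miR-28a in either library.

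miR-28a used both arms. It had 1188 counts of the 5p arm against 1079 of the 3p arm in replicate 1, and 888 against 1166 in replicate 2. The 5p share was 52.4% (50.3 to 54.5) in replicate 1 and 43.2% (41.1 to 45.4) in replicate 2, on either side of equal use. The log2 ratio of 5p over 3p was 0.14 in replicate 1 (adjusted p = 0.0254, exact two-sided binomial test against equal counts, Benjamini-Hochberg over 312 hairpins) and -0.39 in replicate 2 (adjusted p = 1.31e-09, the same test). With opposite signs the arm ratio of miR-28a was not called.

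For a call, an arm ratio needed an adjusted p below 0.05 and the same sign in each library, and a mean over 2 SD. By this rule 2 of the 3 hairpins, miR-151 and miR-708, had a called ratio, both toward 3p. Of all hairpins tested, 43.3% were called toward 3p, and in either direction the share was 89.4% of the 312 hairpins tested and 98.4% of the 129 with at least 100 CPM over both arms. In that group of 129, miR-28a and miR-136 were the hairpins not called. A 4-fold or larger excess of the 3p arm in both libraries was reached by miR-151 alone in the family, against 36.9% of the hairpins tested. Only counting error enters this test, and 2 libraries give an imprecise SD.

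The hairpins differed from each other in arm ratio by more than the libraries did. The log2 arm ratio of miR-28a was above that of miR-708 by 1.42 ± 0.16 and above that of miR-151 by 7.27 ± 0.15, and that of miR-708 was above that of miR-151 by 5.85 ± 0.013 (SD, n = 2). These differences had the same sign in both libraries and are free of library scaling. An arm ratio still holds the adapter ligation yield of each arm's sequence, whose part was not tested. Among hairpins with at least 100 CPM, those with the arm ratio nearest to miR-28a were miR-136 (-0.14 ± 0.29) and miR-30b (0.22 ± 0.014). Those nearest to miR-708 were miR-181c (-1.54 ± 0.39) and miR-124 (-1.49 ± 0.088), and those nearest to miR-151 were miR-222 (-7.21 ± 0.61) and miR-433 (-7.64 ± 0.15). Likeness here is the gap between mean log2 arm ratios over the 2 libraries.

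**Figure D2:**
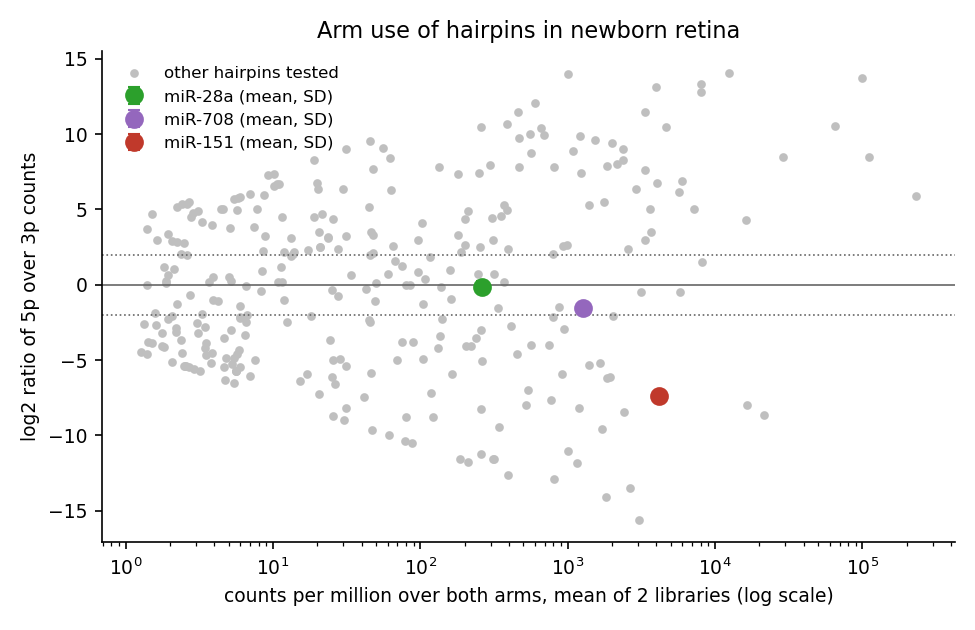
Mean log2 ratio of 5p over 3p counts (y axis) against the level over both arms in CPM (x axis, log scale) for the 312 hairpins tested, with the 3 family hairpins in colour and their SD over the libraries as bars, mostly hidden by the points. Dotted lines mark a 4-fold ratio. miR-28a lies at -0.13, miR-708 at -1.55 and miR-151 at -7.39.

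The first base of an arm is known for human Argonaute to bear on which arm is kept, with U (printed as T in reads) favoured over C. In 100 hairpins with at least 100 CPM, a 4-fold or larger arm ratio and a read for each arm, the higher arm started with T in 50% and the lower arm in 22%. In miR-151 it was the lower arm, 5p, that started with T, and the higher arm, 3p, started with C, a pairing found in 7 of the 100. In miR-28a and in miR-708 the 5p arm started with A and the 3p arm with C. The part of the first base in the arm use of these hairpins was not tested.

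Pairing between the arms' reads was predicted with RNAcofold. The miR-151 arms formed 18 pairs at -28.6 kcal/mol, the miR-708 arms 18 pairs at -23.7 kcal/mol and the miR-28a arms 17 pairs at -25.5 kcal/mol. In miR-151 all 4 of the first 4 bases were paired in the 5p and in the 3p arm. In miR-708 it was 3 of the first 4 in each arm, and in miR-28a it was 2 in the 5p arm and 3 in the 3p arm. These predictions describe the duplexes, and their part in arm use was not tested.

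The 5p share of each family hairpin was lower in replicate 2 than in replicate 1. It was lower by 9.17 percentage points in miR-28a, a log2 odds ratio of -0.53 for replicate 2 over replicate 1 (adjusted p = 5.80e-08, Fisher's exact test of arm by library, Benjamini-Hochberg over 312 hairpins). In miR-708 it was lower by 4.04 points, a log2 odds ratio of -0.31 (adjusted p = 1.09e-09, the same test). In miR-151 the log2 odds ratio was -0.32, of similar size, but the 5p arm had only 219 and 186 counts and the difference did not pass (p = 0.0248, adjusted p = 0.209, the same exact test).

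Thus the arm share of 2 of the 3 hairpins differed between the libraries, both toward 3p in replicate 2. The background was 8.65% of the 312 hairpins tested (4.49% toward 3p) and 18.6% of the 129 at 100 CPM or more (10.1% toward 3p). Counted by hairpin, 147 had a lower and 162 a higher 5p share in replicate 2, with a median log2 odds ratio of 0.02. Among the 129 at 100 CPM or more it was 65 lower and 64 higher. By counts, miRNAs named 3p held 12.4% in replicate 1 and 12.6% in replicate 2. By the absolute size of the shift among the 129 hairpins, miR-28a ranked 30, miR-151 ranked 55 and miR-708 ranked 59. This ranking includes hairpins with very few counts in one arm, whose large shifts were not called. Examples are miR-669c (-3.10, from 0 and 3 counts of its 3p arm) and miR-541 (2.34, from 8 and 1). The ranks therefore do not place the family among well-counted shifts. Fisher's exact test here compares libraries, not conditions, and does not depend on how the libraries are scaled. Only counting error enters it.

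**Figure D3:**
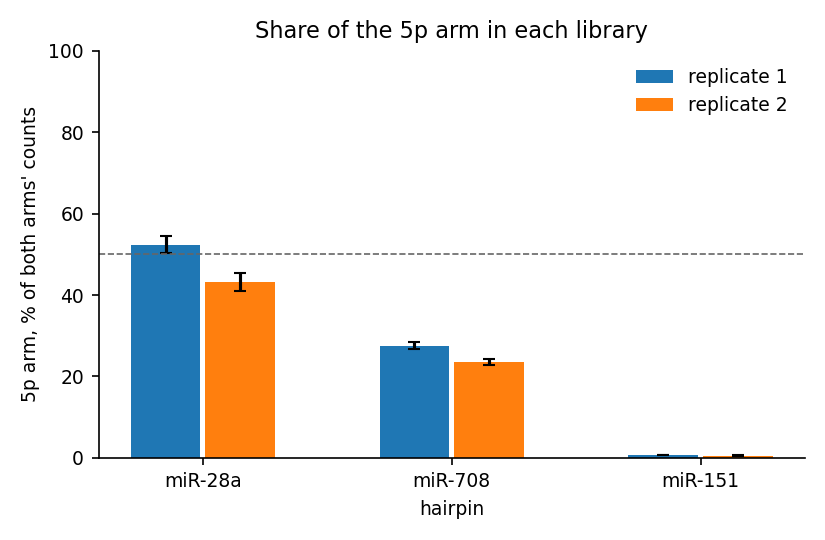
Share of the 5p arm in the counts of both arms (y axis, %) for each hairpin in replicate 1 and replicate 2, with exact 95% intervals for counting error and a dashed line at equal use. miR-28a lies above that line in replicate 1 (52.4%) and under it in replicate 2 (43.2%), while miR-151 stays below 1%.

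**Figure D4:**
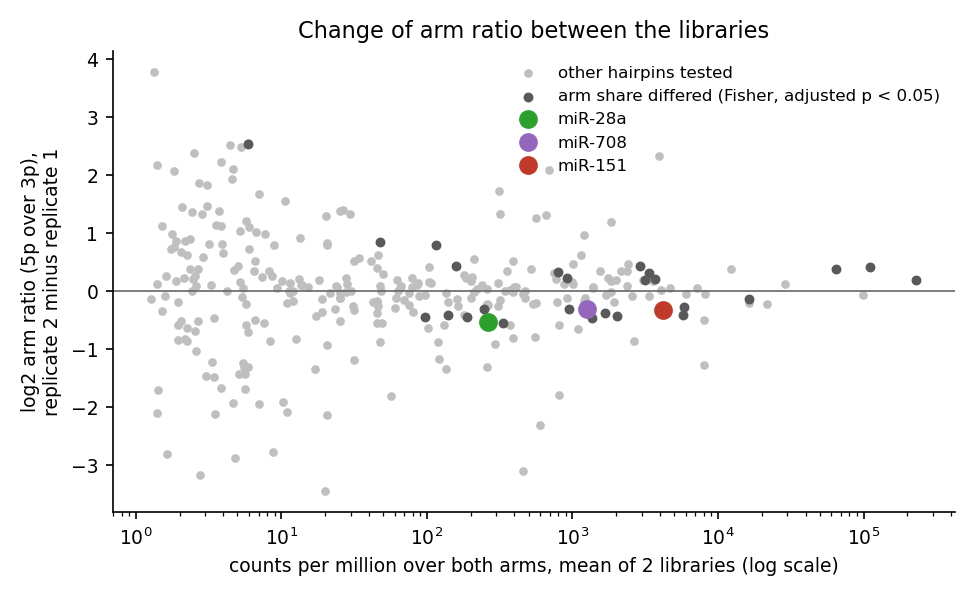
Log2 arm ratio in replicate 2 minus that in replicate 1 (y axis) against the level over both arms in CPM (x axis, log scale) for 312 hairpins. Dark points differed between the libraries in Fisher's exact test, and the coloured points are the family hairpins, at -0.53 (miR-28a), -0.31 (miR-708) and -0.32 (miR-151).

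The arms were also compared between the libraries one by one. The libraries were compared by an exact binomial test of each miRNA's counts, with 710 miRNAs tested. Only counting error enters this binomial test, so its p-values do not measure the spread between replicates. Scaling moved the median log2 ratio of replicate 2 over replicate 1, which was -0.12 by table totals and -0.0018 with TMM, a scaling by the trimmed mean of ratios. By table totals, 4 of the 6 members were called, against 27.7% of all miRNAs tested and 77.8% of those at 100 CPM or more. Of these members 2 were higher in replicate 2, against 8.17% of all tested, and 2 lower, against 19.6%. With TMM it was also 4 of 6, against 26.1%, with 3 higher (against 15.1%) and 1 lower (against 11%). Since 4 of the 5 members at 100 CPM or more were called, their share was close to that of all miRNAs of that level.

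The 3p arms were higher in replicate 2 under both scalings. miR-708-3p had a log2 ratio of 0.20 by table totals (adjusted p = 1.43e-17, exact binomial test) and 0.32 with TMM (adjusted p = 3.39e-43, the same test). For miR-151-3p it was 0.13 by table totals (adjusted p = 1.03e-29, exact binomial test) and 0.25 with TMM (adjusted p = 1.01e-109, the same test). miR-28a-3p had 0.15 by table totals, which was not called (adjusted p = 0.0509, exact binomial test), and 0.27 with TMM, which was (adjusted p = 6.72e-05, the same test).

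Of the 5p arms, miR-28a-5p was lower in replicate 2 under both, at -0.38 by table totals (adjusted p = 1.69e-08, exact binomial test) and -0.26 with TMM (adjusted p = 0.000271). miR-151-5p, at -0.20 and -0.076, was called by neither (adjusted p = 0.372 and 0.818, exact binomial test). miR-708-5p was called lower by table totals (-0.10, adjusted p = 0.0381, exact binomial test), whereas its TMM value had the other sign and was not called (0.018, adjusted p = 0.842). All of these differences were below 1.5-fold, from 0.768 to 1.15 times by table totals and from 0.834 to 1.25 times with TMM.

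**Figure D5:**
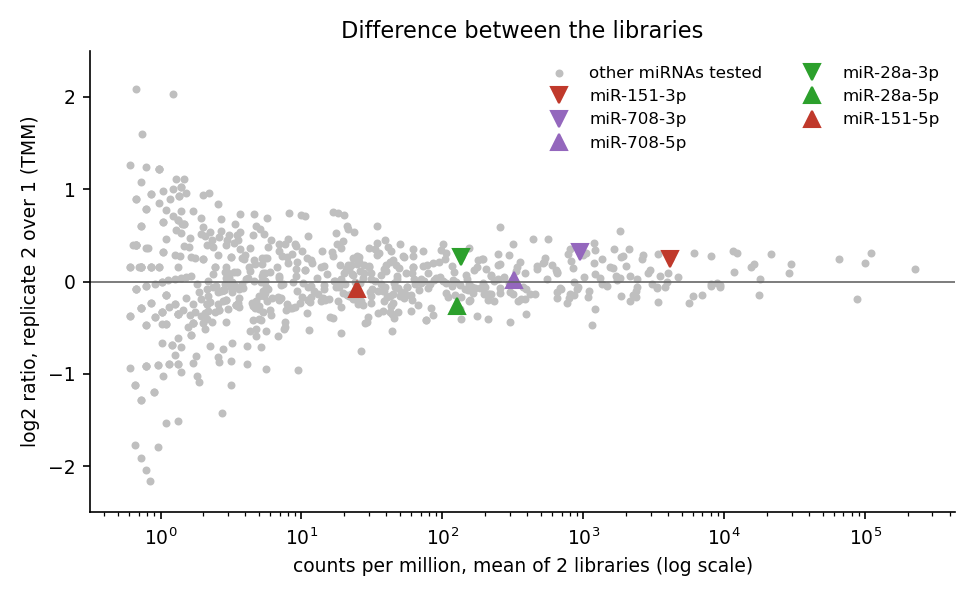
Log2 ratio of replicate 2 over replicate 1 with TMM scaling (y axis) against mean CPM (x axis, log scale) for 710 miRNAs tested, with the members in colour (upward triangles 5p, downward triangles 3p). The 3p members lie between 0.25 and 0.32, and the 5p members between -0.26 and 0.018.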

How the data were processed

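Small RNA of newborn CD-1 mouse retina was sequenced in 2 libraries, with reads written out with bcl2fastq 2.17.1.14 per the submitters' processing notes. Per the labels' protocols small RNA was cut from gels and libraries were made by adapter ligation. The aligner is not given in the sources used here, nor is the counting program or the build. The deposited table of estimated counts held 1 unscaled value per mature miRNA, and 6.77% and 5.96% of its values were not whole, so counts were rounded for tests. The deposited CPM table was scaled by the authors to a library total, of which the rows used here are 88.5%. Per the file headers, the most frequent reads carry marks against miRBase release 21, as text and no other measurement.

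CPM was the count over the table total (8337902 and 8118208), 1.13 times the deposited CPM. A count of 0 allowed up to 0.36 and 0.37 CPM (3 counts). Intervals are Clopper-Pearson 95% and cover counting error only, since amplified reads with no molecular identifiers are not separate molecules. Ratios had 0.5 added to each count. Hairpins needed 10 counts over both arms in each library, and miRNAs 10 counts over both libraries. The named miRNAs were the members, miR-28b and miR-28c, the neighbours in level of each member, the 2 hairpins nearest in arm ratio and those with a member's seed. The members and lists were chosen with earlier results of these data known. Scaling alternatives used edgeR 4.0.16 (TMM) and DESeq2 1.42.0 size factors in R 4.3.3, and the rest used Python 3.11.15, SciPy 1.17.1 and statsmodels 0.14.6.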

Additional observations from a re-analysis of the deposited data

How the results depend on the processing

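The arm ratios of miR-151 and miR-708 and all of the same-arm ratios kept their direction under each alternative run for them. miR-28a had a mean arm ratio of -0.13, and with a single library it was from -0.39 (without replicate 1) to 0.14 (without replicate 2), called each time with opposite signs. The difference of miR-28a-3p between the libraries, not called at 0.15 by table totals, was called with TMM (0.27), with DESeq2 size factors (0.25) and among miRNAs with at least 100 counts (0.15). That of miR-708-5p, called at -0.10, was not called with TMM (0.018, the sign turned), with DESeq2 size factors (-0.00199) or without a count minimum (-0.10). By table totals 58 miRNAs were higher and 139 lower in replicate 2, against 107 and 78 with TMM and 99 and 88 with DESeq2 size factors. The deposited CPM, on the authors' larger total, gave lower levels for all 6 members, miR-28a-5p (111.5), miR-28a-3p (120.9), miR-151-5p (21.8), miR-151-3p (3660.5), miR-708-5p (285) and miR-708-3p (834). No paired analysis was possible because the series has a single group. With 219 and 186 counts, miR-151-5p limits what can be seen of its hairpin's arm use.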

Other observations

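The near relatives miR-28b and miR-28c were barely detected, and their most frequent reads were a single base away from a member's read. miR-28c had 3 counts in replicate 1 and 6 in replicate 2, and miR-28b had 1 and 0. In replicate 1 the most frequent read given to miR-28c, ccgaggagctcacagtctagt, differed from the miR-151-5p read by T1C. In replicate 2 it was gaggagctcacagtctattga, which differed from the miR-28a-5p read by A1G. The miR-28b read differed from the miR-28a-5p read by G13A. Positions are counted from 1 at the 5′ end, with the member's base first. The counts of miR-28b and miR-28c are therefore uncertain, and they are few beside the counts of the members.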
